A study of Mus musculus with 12 samples.

Results

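The genes described here make the major histocompatibility complex (MHC) class I pathway of antigen presentation: the heavy chains H2-D1 and H2-K1, their partner B2m, the peptide transporter subunits Tap1 and Tap2, the loading factor Tapbp, the immunoproteasome subunits Psmb8, Psmb9 and Psmb10, and the trimming peptidase Erap1. They are 10 of the 16593 named genes on the array, and every probe annotated with one of these symbols was taken, which gave 16 probes. Class I molecules show fragments of a cell's own proteins to cytotoxic T cells. Proteasomes cut the proteins, the TAP transporter carries the fragments into the endoplasmic reticulum, and tapasin holds an empty class I molecule beside the transporter until a fragment fits. Most nucleated cells express the pathway, and interferons are well known to raise it as a whole.

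The cells were lineage-negative bone marrow cells of C57Bl/6J mice, grown in medium with 15% serum, 10 ng/mL IL-3, 50 ng/mL SCF and 50 ng/mL FLT3 ligand. RE cells received the retroviral vector MigR1 with HA-tagged RUNX1-ETO, the fusion transcription factor of a recurrent translocation in acute myeloid leukaemia, and Mig cells received the empty vector. RE+GM and Mig+GM cells were also given 10 ng/mL of the myeloid growth factor GM-CSF for the last 24 h. All 4 groups were sorted for the vector's GFP, for c-Kit and for absence of lineage markers, after 48 h of fusion expression in the RE and RE+GM groups, and each group held 3 arrays. The fusion was thus expressed from a viral vector in short-term culture. Separate animals or cultures are not stated for the replicates, so every p-value reflects the spread among these arrays alone and that spread may be technical. In sorted but mixed cells, fewer cells of a type and less RNA per cell cannot be told apart.

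Values are normalized log2 signals of Illumina Mouse Ref-8 v2.0 arrays. Changes are differences of group means with the standard error of the limma model, and a gene was called where its adjusted p was under 0.05 over all 12121 tested units. Mean array signal lay between 318 and 597, lowest in RE replicate 1, and 49.4% to 62.6% of probes were above the estimated background, again lowest in RE replicate 1. A probe annotated to Runx1t1, which encodes ETO, was above background on all RE and RE+GM arrays (7.79 to 8.77) and on none of the Mig+GM and Mig arrays (6.05 to 6.24). The other Runx1t1 probe was below background on every RE and RE+GM array. Of the progenitor markers measured, 9 of the 10 listed were on the array and none was below background throughout any group, and Kit itself was not analysed here.

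Upstream sequences of 9 of the 10 genes were matched in the RefSeq promoter table (mouse build GRCm38.p6, 250 bases before to 50 after each start), and Tap2 had no entry. Class I promoters are known to respond to interferon and to NF-kB. The stretches below show letter matches to the patterns of such elements, beside genes whose levels are given further on. Whether any match is a working element was not tested. Capitals mark matches, on either strand, to the interferon-stimulated response element (ISRE: GAAA, any 2 bases, GAAA), to its shorter form GAANNGAAA (N is any base), and to the NF-kB pattern (GGG, any 5 bases, CC). The ends of overlapping matches run together. The shorter ISRE form was added after the promoters had been seen. All are written 5′ to 3′ on the strand named. The first 2 lie upstream of the heavy chain genes H2-K1 (chr17:34000369-34000497, minus strand) and H2-D1 (chr17:35262884-35263012, plus strand).
H2-K1: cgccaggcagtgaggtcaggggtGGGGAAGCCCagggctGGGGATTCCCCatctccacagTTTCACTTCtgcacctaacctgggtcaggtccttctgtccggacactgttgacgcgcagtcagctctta
H2-D1: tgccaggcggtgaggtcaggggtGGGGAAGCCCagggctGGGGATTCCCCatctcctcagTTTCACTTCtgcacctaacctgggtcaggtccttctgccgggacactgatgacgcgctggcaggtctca

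The H2-K1 and H2-D1 stretches match at 119 of 129 bases (92.2%) without gaps. Both hold the NF-kB letters followed by the shorter ISRE form. The B2m stretch (chr2:122147488-122147617, plus strand) carries the full ISRE letters next to an NF-kB match, and the Erap1 stretch (chr13:74639789-74639858, plus strand) carries the ISRE letters across the annotated start.
B2m: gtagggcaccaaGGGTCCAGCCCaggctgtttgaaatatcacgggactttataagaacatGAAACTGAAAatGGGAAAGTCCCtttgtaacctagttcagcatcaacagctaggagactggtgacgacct
Erap1: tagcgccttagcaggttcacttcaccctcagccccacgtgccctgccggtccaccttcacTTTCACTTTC

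Psmb9, Tap1, Psmb8 and Tap2 are neighbours on chromosome 17. Psmb9 and Tap1 are read in opposite directions from starts only 225 bases apart, and the interval between them (chr17:34187331-34187555, plus strand, the Tap1 direction) is therefore upstream sequence of both genes. Its marked letters match the NF-kB pattern only, and neither ISRE form was found there.
Tap1 and Psmb9: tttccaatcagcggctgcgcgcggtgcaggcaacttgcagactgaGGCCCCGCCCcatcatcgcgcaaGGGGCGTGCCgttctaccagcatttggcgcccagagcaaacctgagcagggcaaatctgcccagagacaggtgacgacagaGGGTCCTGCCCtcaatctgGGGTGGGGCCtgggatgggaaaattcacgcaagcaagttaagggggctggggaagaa

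Among all 32544 promoters in the table, 3.45% held the full ISRE letters, as did those of B2m and Erap1. The shorter GAANNGAAA was in 7.57% of all promoters and, among these genes, in H2-D1 and H2-K1 and neither form contains the other. The gamma-interferon element TTCNNNGAA was in 8.33% of promoters and in that of Psmb8. The NF-kB pattern, which is loose, was in 51% of promoters and in those of H2-D1, H2-K1, B2m, Tap1 and Psmb9. TGTGGT, the letters that RUNX proteins are known to bind, was in 16.7% of promoters and in those of Tapbp and Psmb10. These are letter matches only.

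All 10 genes passed the filter on dim probes, with 14 of their 16 probes, and those 14 were above background on all 12 arrays. RUNX1-ETO cells had higher levels of 9 of the 10 genes, both without and with GM-CSF. In RE against Mig cells 9 were called higher and none lower, also without RE replicate 1, beside 17.6% of all units called higher and 20.1% called lower. With GM-CSF the count was again 9 higher and none lower, beside 18.8% and 23.3% of all units. The median change of the 10 genes was 1.31 in RE against Mig and 1.21 in RE+GM against Mig+GM, while the median of all tested units was -0.04 in each. Every RE array was above every Mig array for 10 of 10 genes, against 21% of all units, and every RE+GM array above every Mig+GM array for 9 of 10, against 22.8% of units. Scaling the arrays to one median instead of equalizing their distributions lowered the share of RE against Mig calls that were higher to 26.3%, against 46.6%, and left 7 of the 10 genes called.

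**Figure D1:**
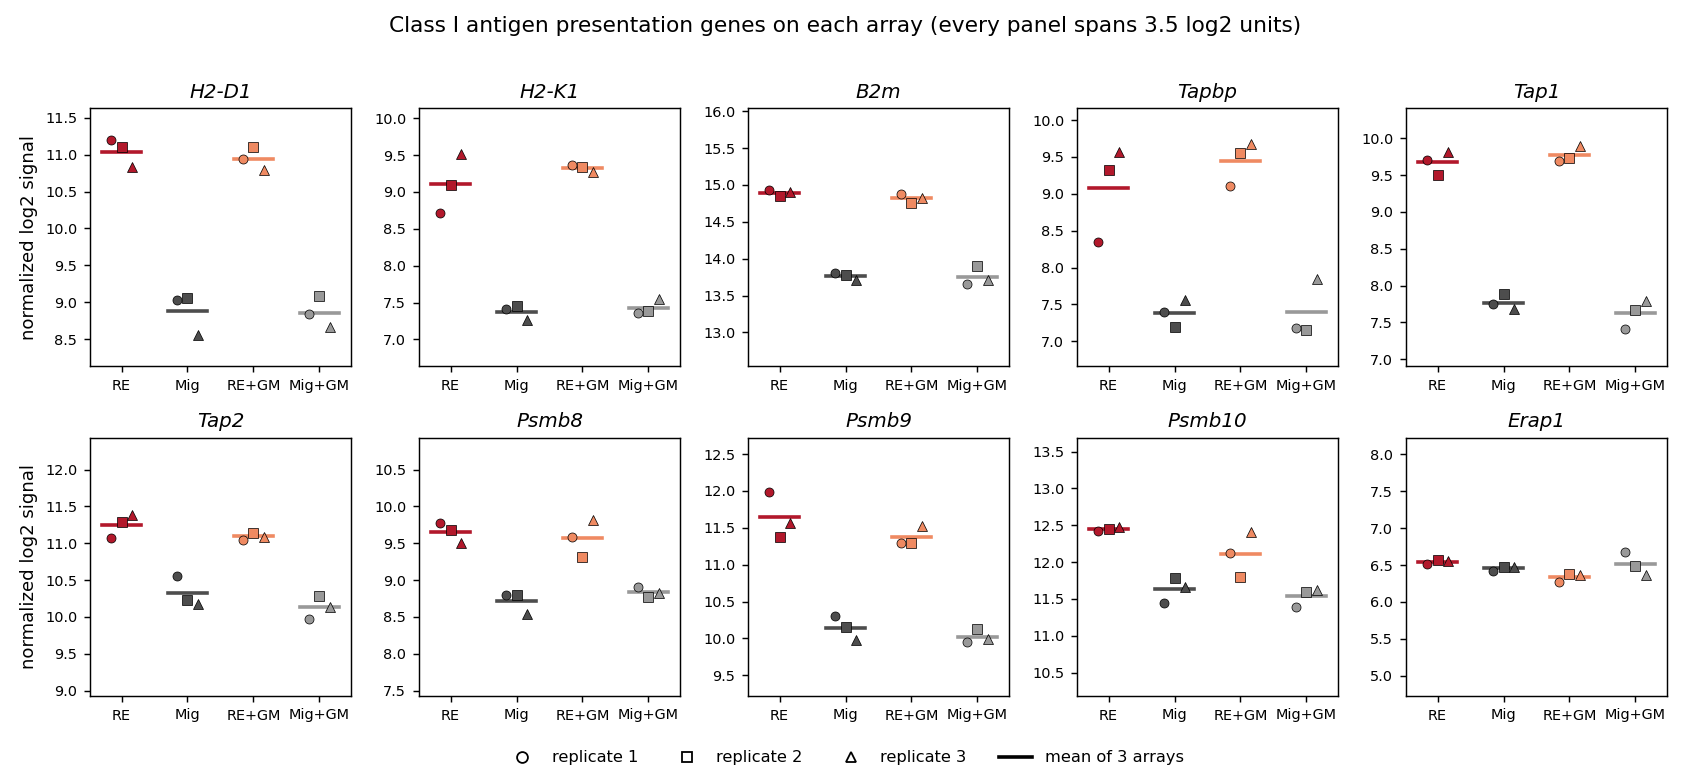
Normalized log2 signal (y axis) of the tested probe of each gene on the 12 arrays, by group (x axis); symbols are replicates and bars are means of 3 arrays. Every RE array lies above every Mig array in all 10 panels, and the Erap1 signals of all groups stay between 6.27 and 6.68.

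The classical heavy chains, which hold the peptide and face the T cell receptor, showed some of the wider differences. H2-D1 was 11.20, 11.10 and 10.83 in RE replicates 1 to 3, against 9.03, 9.06 and 8.56 in Mig. With GM-CSF it was 10.94, 11.11 and 10.79 in RE+GM, against 8.84, 9.08 and 8.66 in Mig+GM. The 6 arrays with the fusion thus stood apart from the other 6 with no overlap. The change of H2-D1 was 2.16 ± 0.16 (SE, 4.47-fold, limma adjusted p 1.6e-06) without GM-CSF and 2.09 ± 0.16 (4.25-fold, adjusted p 1.52e-06) with it.

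H2-K1 was 8.72, 9.09 and 9.51 in RE and 7.41, 7.46 and 7.26 in Mig. In the presence of GM-CSF it was 9.36, 9.34 and 9.27 in RE+GM and 7.36, 7.38 and 7.55 in Mig+GM. RE replicate 1 was the lowest of the fusion arrays and still above all vector arrays. H2-K1 rose by 1.73 ± 0.16 (3.31-fold, limma adjusted p 7.95e-06) without and 1.89 ± 0.16 (3.71-fold, adjusted p 2.95e-06) with GM-CSF. A further H2-K1 probe changed by 1.25 ± 0.18 and 1.37 ± 0.18 and was called in both. Class I genes are near-identical in sequence over long stretches and probe sequences were not used here, so which class I transcript a heavy chain probe reports is uncertain.

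B2m, the invariant light chain without which class I molecules do not reach the surface, was 14.93, 14.85 and 14.90 in RE and 13.81, 13.78 and 13.71 in Mig. It was 14.88, 14.76 and 14.82 in RE+GM and 13.65, 13.90 and 13.71 in Mig+GM. Replicates lay close together and the groups did not overlap. B2m rose by 1.12 ± 0.08 (2.18-fold, limma adjusted p 1.63e-06) and by 1.06 ± 0.08 (2.09-fold, adjusted p 1.81e-06) with GM-CSF. A further probe gave 1.14 ± 0.08 and 1.12 ± 0.08, and a last one was below background on all 12 arrays. The deposited B2m signal was 80.4% to 91.5% of the brightest probe's on RE and RE+GM arrays and 35.1% to 50.2% on Mig+GM and Mig arrays, and whether the scale flattens there was not tested.

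Tapasin, encoded by Tapbp, bridges class I molecules and the transporter and edits which peptide is bound. Tapbp was 8.34, 9.33 and 9.57 in RE and 7.40, 7.19 and 7.56 in Mig. It was 9.11, 9.56 and 9.67 in RE+GM and 7.18, 7.15 and 7.85 in Mig+GM. No fusion array overlapped a vector array, but the spread was wider than for the other genes. The change was 1.70 ± 0.29 (3.25-fold, limma adjusted p 0.000677) without GM-CSF, 2.07 without RE replicate 1, and 2.05 ± 0.29 (4.15-fold, adjusted p 0.000131) with GM-CSF.

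A further Tapbp probe did not give the same picture in RE cells. It was 6.84, 8.54 and 9.26 in RE and 7.22, 7.19 and 7.82 in Mig, so that RE replicate 1 fell below all Mig arrays. Its change there was 0.81 ± 0.48 (limma adjusted p 0.231) and was not called. With GM-CSF it was 9.19, 9.14 and 9.27 in RE+GM and 7.27, 6.88 and 7.95 in Mig+GM, a change of 1.84 ± 0.48 (adjusted p 0.00906). RE replicate 1 was also the dimmest array, and the part of that in the low value was not tested.

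**Figure D2:**
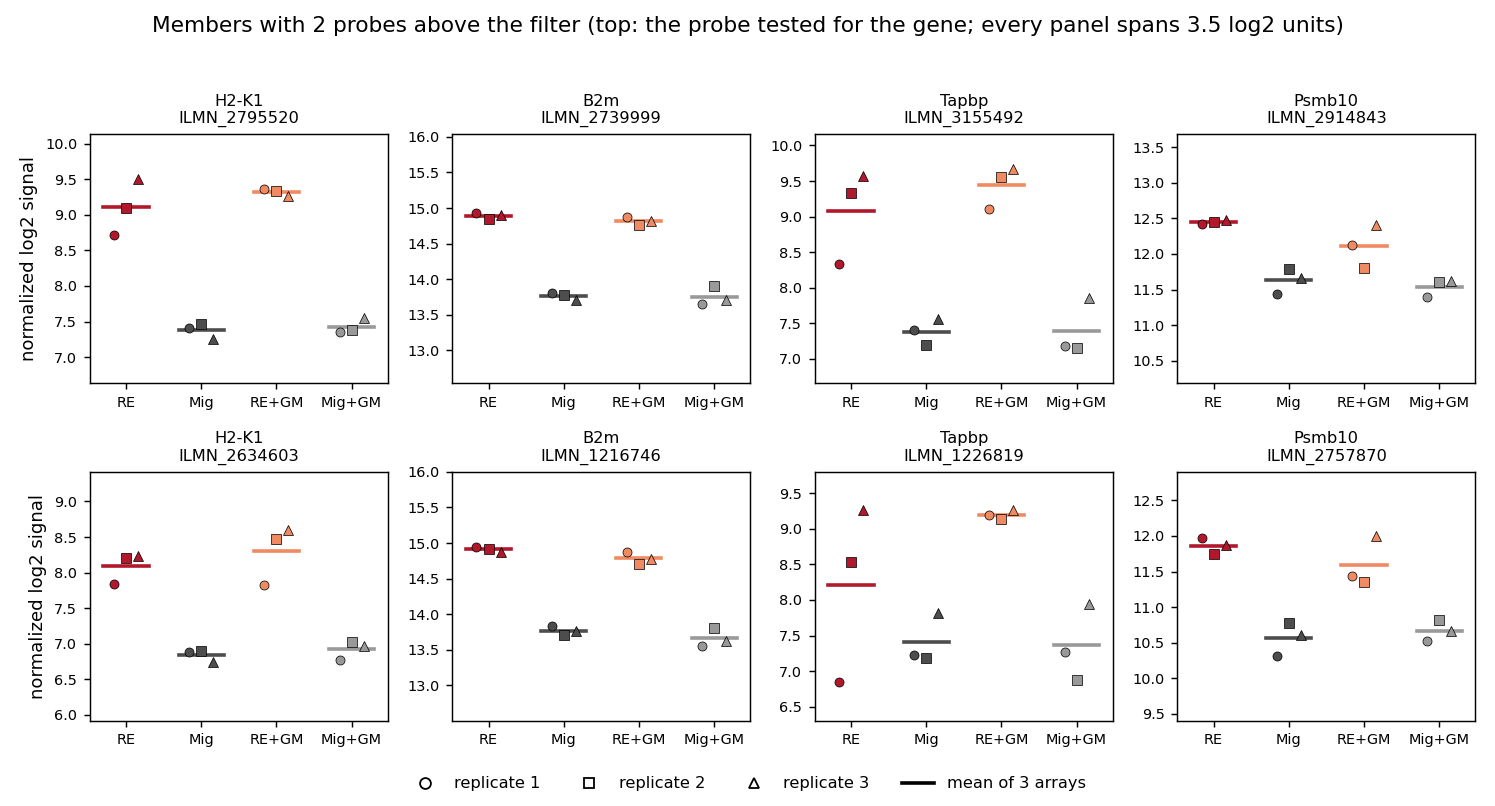
Normalized log2 signal (y axis) of the 4 genes with 2 probes above the filter, by group (x axis), with replicate symbols and means of 3 arrays; the upper row holds the probe tested for the gene. Both probes separate fusion and vector arrays for H2-K1, B2m and Psmb10, and the lower Tapbp probe does not in RE against Mig, where RE replicate 1 is at 6.84.

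Tap1 and Tap2 together form the ATP-driven pump that moves peptides into the endoplasmic reticulum. Tap1 was 9.71, 9.50 and 9.81 in RE and 7.75, 7.88 and 7.68 in Mig. It was 9.69, 9.73 and 9.90 in RE+GM and 7.41, 7.67 and 7.79 in Mig+GM. The groups were far apart and replicates close. Its changes of 1.91 ± 0.12 (3.75-fold, limma adjusted p 4.24e-07) and 2.15 ± 0.12 (4.43-fold, adjusted p 1.39e-07) had the smallest adjusted p-values of the 10 genes.

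Tap2 was 11.07, 11.29 and 11.39 in RE and 10.55, 10.23 and 10.18 in Mig. It was 11.05, 11.14 and 11.09 in RE+GM and 9.97, 10.29 and 10.14 in Mig+GM. The groups did not overlap, with a smaller gap than for Tap1. Tap2 rose by 0.93 ± 0.12 (1.9-fold, limma adjusted p 0.000121) without and 0.96 ± 0.12 (1.94-fold, adjusted p 6.55e-05) with GM-CSF. Median scaling brought the Tap2 change without GM-CSF to 0.48 (adjusted p 0.115), which was not called.

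Psmb8, Psmb9 and Psmb10 replace the catalytic subunits Psmb5, Psmb6 and Psmb7 of the standard proteasome to form the immunoproteasome, whose products often suit the class I groove. Psmb9 was 11.99, 11.37 and 11.56 in RE and averaged 10.15 ± 0.16 in Mig (SD, n = 3). It was 11.30, 11.30 and 11.53 in RE+GM and 9.95, 10.13 and 9.99 in Mig+GM. In both comparisons every fusion array exceeded every vector array by more than 1 log2 unit. The change of Psmb9 was 1.5 ± 0.15 (2.82-fold, limma adjusted p 1.45e-05) and, with GM-CSF, 1.35 ± 0.15 (2.55-fold, adjusted p 1.96e-05).

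Psmb8 was 9.78, 9.68 and 9.51 in RE and 8.80, 8.80 and 8.54 in Mig. It was 9.58, 9.31 and 9.82 in RE+GM and 8.91, 8.77 and 8.82 in Mig+GM. The groups again did not overlap. Psmb8 rose by 0.95 ± 0.13 (1.93-fold, limma adjusted p 0.00015) and by 0.74 ± 0.13 (1.67-fold, adjusted p 0.000644) with GM-CSF, and median scaling moved the value without GM-CSF to 0.54.

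Psmb10 was 12.42, 12.45 and 12.48 in RE and 11.44, 11.79 and 11.66 in Mig. It was 12.12, 11.80 and 12.41 in RE+GM and 11.39, 11.60 and 11.62 in Mig+GM. The gap between RE+GM replicate 2 and the highest Mig+GM array was the narrowest among the called genes. Psmb10 rose by 0.82 ± 0.14 (1.76-fold, limma adjusted p 0.000767) and by 0.57 ± 0.14 (1.49-fold, adjusted p 0.00631) with GM-CSF. Median scaling gave 0.37 (adjusted p 0.105) without GM-CSF, while a further Psmb10 probe changed by 1.29 ± 0.17 and 0.93 ± 0.17 and was called in both.

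The values of the standard subunits depended on the scaling. Psmb5 averaged 10.84 ± 0.18 in RE and 11.06 ± 0.13 in Mig (SD, n = 3 each), a change of -0.22 ± 0.13 (limma adjusted p 0.231), and with GM-CSF its change was -0.38 ± 0.13 (adjusted p 0.0401). Median scaling gave -0.65 (adjusted p 0.0051) for Psmb5 in RE against Mig. Psmb6 changed by 0.26 ± 0.09 (adjusted p 0.0453) and 0.19 ± 0.09 (adjusted p 0.143), and under median scaling the first became -0.18 (adjusted p 0.318). Psmb7 changed by -0.06 ± 0.09 and 0.07 ± 0.09 and was not called, though median scaling gave -0.51 (adjusted p 0.0426) in RE against Mig. The calls of Psmb5 and Psmb6 were each lost in at least 11 of 24 alternatives. In the authors' normalized table, Psmb6 (limma adjusted p 0.015) and Psmb7 (adjusted p 0.047) were instead called higher in RE+GM against Mig+GM. Differences between the subunits' changes were not tested.

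Erap1 trims peptides in the endoplasmic reticulum to the length that class I molecules hold, and it was the exception. It was 6.51, 6.57 and 6.56 in RE and 6.42, 6.48 and 6.47 in Mig. It was 6.27, 6.38 and 6.36 in RE+GM and 6.68, 6.49 and 6.37 in Mig+GM. These signals lay just above the background thresholds of the arrays, which fell between 6.17 and 6.34 on this scale. The RE arrays were all above the Mig arrays, yet by little: the change was 0.09 ± 0.09 (95% interval -0.10 to 0.28, limma adjusted p 0.468). With GM-CSF it was -0.18 ± 0.09 (interval -0.37 to 0.01, adjusted p 0.132). A further Erap1 probe was below background on all 12 arrays, so a change of a dim transcript could have been missed.

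No class I gene was called for GM-CSF in either kind of cell by limma. In RE+GM against RE cells 0 of the 10 genes were called and 2 had an unadjusted p under 0.05, beside 2.26% of all units called (274 units, and 695 with replicate numbers as a block). Changes ran between -0.34 and 0.36 with a median of -0.09. In Mig+GM against Mig cells 0 were called and 0 had an unadjusted p under 0.05, beside 0.00825% of all units called (1 unit, and 2 with the block). Changes ran between -0.19 and 0.12 with a median of -0.02. For Psmb10 and Erap1 the RE+GM arrays all lay below the RE arrays, as for 13.7% of all units. Their changes were -0.34 (95% interval -0.65 to -0.03, limma adjusted p 0.239) and -0.21 (interval -0.40 to -0.02, adjusted p 0.235).

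Whether the fusion's difference depended on GM-CSF was tested by the interaction. None of the 10 genes was called, none had an unadjusted p under 0.05, and 0.264% of all units were called (32 units, and 74 with replicate numbers as a block). The estimates ran between -0.27 for Erap1 (limma adjusted p 0.546) and 0.35 for Tapbp (95% interval -0.55 to 1.25). Under median scaling none was called either, but the median interaction of the 10 genes was 0.39, against -0.07. The median change in RE+GM against RE was then 0.15, against -0.09, so neither direction was settled. Over the alternatives the Tap1 interaction ran between 0.13 and 0.66 and that of H2-D1 between -0.18 and 0.42.

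**Figure D3:**
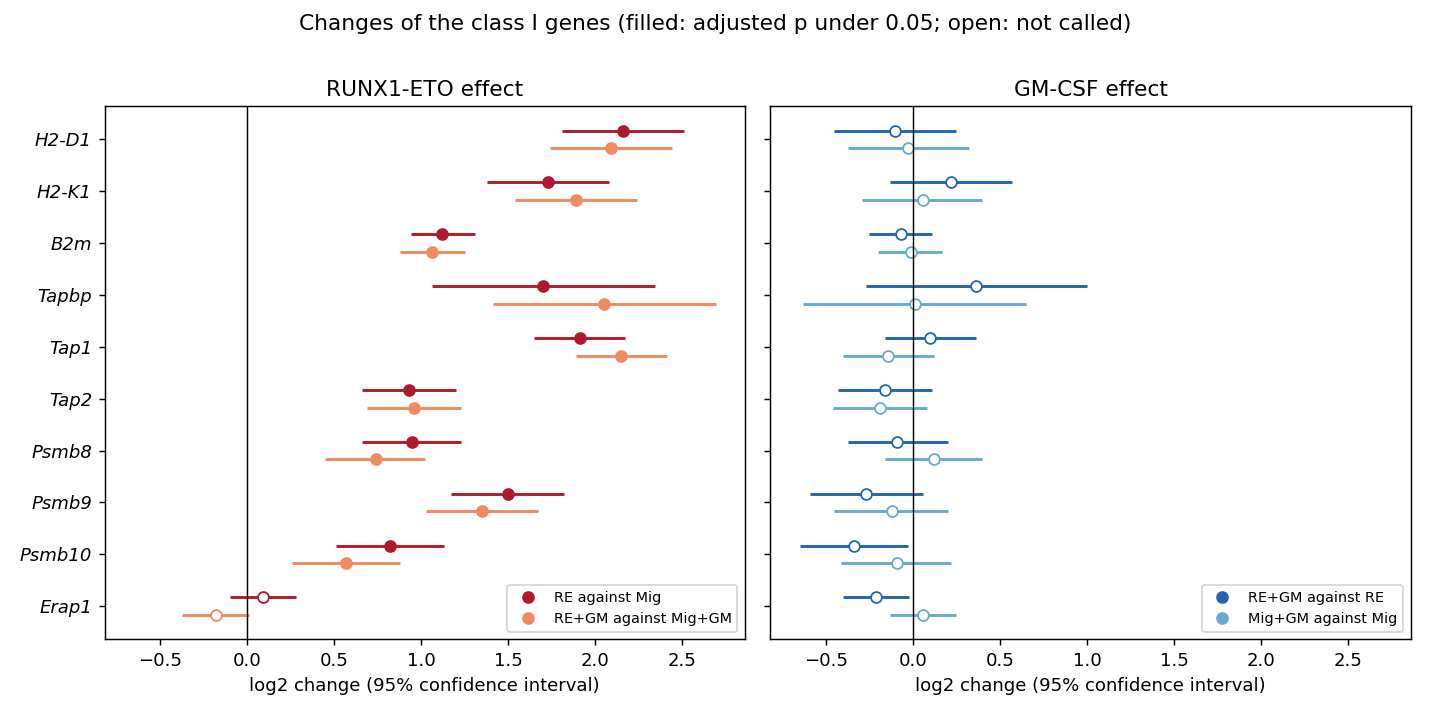
Log2 change (x axis) with 95% confidence interval for each gene (y axis), for RUNX1-ETO against vector (left) and for GM-CSF against none (right); filled points were called. The 9 genes above Erap1 lie between 0.57 and 2.16 on the left, and no point on the right is filled.

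Over the 12 arrays the 10 genes formed 45 pairs, whose Pearson correlations had a median of 0.903 and ran between -0.296 and 0.988. All 9 pairs with Erap1 were below 0, and all others were 0.791 or more. These values describe 12 arrays that fall into fusion and vector sets and share one normalization. The mean of the 10 standardized genes was 0.87 to 1.05 in RE and -0.91 to -0.72 in Mig. It was 0.56 to 0.83 in RE+GM and -0.88 to -0.77 in Mig+GM.

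Outside the 10 genes, those with the most similar pattern over the 12 arrays by Pearson correlation with that mean were Phf11d (0.995), Ifit3 (0.994), Ifit2 (0.992), Crlf3 (0.992) and Irf7 (0.991). Ifit2 and Ifit3 encode antiviral proteins and Irf7 a transcription factor of the interferon system. In RE against Mig, Ifit3 differed by 5.68, Irf7 by 4.49 and Phf11d by 4.16, all wider than any of the 10 genes. Any gene that separates fusion and vector arrays cleanly scores high on this measure.

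Beyond the classical pathway, several nonclassical class I genes were higher in the fusion groups. Of 33 class Ib and class I-like genes listed, 27 were on the array and 17 were tested. In RE against Mig 6 were called higher and none lower, beside 17.6% and 20.1% of all units, with a median change of 0.24. In RE+GM against Mig+GM 6 were higher and 2 lower, beside 18.8% and 23.3% of all units, with a median of 0.04. Both counts of 6 include H2-Q5, which passed the filter only through the fusion groups. H2-T23 encodes Qa-1, the ligand of inhibitory receptors on natural killer cells. It averaged 13.27 ± 0.22 in RE and 10.52 ± 0.07 in Mig (SD, n = 3 each), a change of 2.75 ± 0.12 (limma adjusted p 3.13e-08), and with GM-CSF it changed by 2.90 ± 0.12 (adjusted p 1.94e-08).

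Some genes of the Qa region also rose, while H2-Q1 was 6.83 ± 0.02 in RE and 6.89 ± 0.08 in Mig (not called). H2-Q1 was called lower in RE+GM against Mig+GM (-0.26 ± 0.07). H2-Q7 rose by 2.60 ± 0.14 and 2.77 ± 0.14 and H2-Q8 by 2.60 ± 0.16 and 2.33 ± 0.16, called in both comparisons. H2-Q5 was above background on no Mig or Mig+GM array (means 6.10 and 6.05) and passed the filter only through the fusion groups. Its changes of 1.18 ± 0.14 and 1.36 ± 0.14, called in both, are thus measured from the background. The uncertainty between paralogs stated above holds for all of these genes. The iron regulator Hfe, a class I-like protein, changed by -0.43 ± 0.36 in RE against Mig (not called). In RE+GM against Mig+GM it changed by -1.16 ± 0.36 (limma adjusted p 0.0211). Cd1d1, which presents lipids, was the one pathway gene called for GM-CSF, at -0.75 ± 0.15 in RE+GM against RE (adjusted p 0.0245). The calls of Hfe and Cd1d1 ended under median scaling and without single replicates.

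Among chaperones of peptide loading, 12 of 13 listed genes were on the array and 11 were tested. In RE against Mig 1 was called higher and with GM-CSF 6, none lower, with medians of 0.22 and 0.47. Over all units 17.6% and 18.8% were called higher and 20.1% and 23.3% lower. Tapbpl, the tapasin-related peptide editor, rose by 1.49 ± 0.12 (limma adjusted p 2.84e-06) and 1.27 ± 0.12 (adjusted p 6.03e-06), or by 0.69 and 0.68 as a mean over its probes. Pdia3, tapasin's partner, changed by 0.24 ± 0.22 (not called) and 0.59 ± 0.22 (adjusted p 0.047). Without RE replicate 1, the dimmest array, Pdia3 was at 0.53 (adjusted p 0.0192) and P4hb at 0.57 (adjusted p 0.00616) in RE against Mig, both called. Median scaling instead gave -0.24 and -0.13 there (not called). P4hb, Bcap31 and Sec61b changed by 0.53 ± 0.19, 0.47 ± 0.15 and 0.43 ± 0.13 with GM-CSF and were called there. Without it Sec61b changed by 0.28 ± 0.13, not called, or called with replicate numbers as a block (adjusted p 0.0465). The calls of Pdia3, P4hb, Bcap31 and Sec61b each ended without one or another single array, and the difference between the comparisons was not called for any of them.

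Genes of proteasome activators, assembly factors and the standard catalytic subunits, Psmb5, Psmb6 and Psmb7 included, went both ways. Of 14 listed genes, 11 were on the array and all 11 were tested. In RE against Mig 3 were higher and 4 lower, beside 17.6% and 20.1% of all units. With GM-CSF 3 were higher and 6 lower, beside 18.8% and 23.3% of all units. The medians were -0.22 and -0.38. Psme1, a subunit of the interferon-inducible PA28 activator, rose by 0.92 ± 0.10 (limma adjusted p 3.5e-05) and 0.79 ± 0.10. Its partner subunit Psme2 averaged 9.54 in RE and 9.34 in Mig, where the arrays overlapped, and 9.85 in RE+GM and 9.24 in Mig+GM. Psme3, which forms a nuclear activator, changed by -0.84 ± 0.11 and -0.88 ± 0.11. Assembly factors went both ways. Pomp, named after its values were seen, was higher in both fusion groups, with no overlap. Its arrays lay at 12.81 to 12.96 in RE and 12.45 to 12.62 in Mig. With GM-CSF they lay at 12.95 to 13.05 in RE+GM and 12.5 to 12.66 in Mig+GM. The assembly chaperones Psmg1 (-1.03 ± 0.15 and -1.21 ± 0.15), Psmg2 (-1.16 ± 0.13 and -1.06 ± 0.13) and Psmg3 (-0.75 ± 0.11 and -0.85 ± 0.11) were lower in both comparisons.

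Cytosolic peptidases, which can destroy peptides before transport, were mostly not called. Of 9 listed, 8 were on the array and 7 tested. In RE against Mig 1 was higher and 2 lower, beside 17.6% and 20.1% of all units. With GM-CSF none was higher and 2 were lower, beside 18.8% and 23.3% of all units. The medians were -0.33 and -0.17. Thop1, which degrades class I peptides, changed by -0.62 ± 0.11 (limma adjusted p 0.00117) and -1.28 ± 0.11 (adjusted p 4.58e-06). Blmh changed by -0.43 ± 0.13 and -0.34 ± 0.13, called in both, and Nrd1 by 0.26 ± 0.09 (adjusted p 0.0428) and 0.10 ± 0.09 (not called). The Blmh call without GM-CSF was lost without RE replicate 3, Mig replicate 1 or Mig replicate 2 (adjusted p 0.0729, 0.0543 and 0.072). The Blmh call with GM-CSF and the Nrd1 call were each lost in 13 or more of 24 alternatives, for Nrd1 also with replicate numbers as a block (adjusted p 0.0529), and median scaling turned Nrd1 to -0.18.

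Of 17 listed regulators of class I genes, 15 were on the array and 14 tested. In RE against Mig 7 were higher and 1 lower, beside 17.6% and 20.1% of all units. With GM-CSF 6 were higher and 2 lower, beside 18.8% and 23.3% of all units. The medians were 0.52 and 0.14. Nlrc5, the transactivator of class I promoters, averaged 8.17 ± 0.22 in RE and 6.50 ± 0.19 in Mig (SD, n = 3 each). It rose by 1.66 ± 0.14 (limma adjusted p 4.85e-06) and by 1.56 ± 0.14 with GM-CSF. Stat2 and Irf9, partners in the factor that binds the ISRE, rose by 2.01 ± 0.20 and 1.98 ± 0.13, and with GM-CSF by 1.77 ± 0.20 and 1.80 ± 0.13. Irf1, a direct activator of class I genes, rose by 1.38 ± 0.16 and 1.02 ± 0.16. Irf8, a myeloid family member, changed by 1.01 ± 0.30 (adjusted p 0.0188) and by 0.19 ± 0.30 with GM-CSF (not called). The Irf8 call ended under median scaling and without single arrays, among them RE replicate 1.

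The interferon genes themselves had low signals, none above 7.13 on any array. Of 17 interferon ligand genes on the array, 7 were below background on all 12 arrays and 7 were tested, and none was called in any comparison. One of them, Ifng, passed the filter only through the 3 RE arrays, where it averaged 6.33, against 6.12 in Mig. Its unadjusted p under 0.05 in RE against Mig therefore carries no weight, and it was named after its value was seen. Ifnb1 was above background on 1 array, and Ifna6 and Ifne were above it on all 12, at no more than 7.13 and 6.52. Over the list of ligands, receptors and receptor kinases, 24 of 28 genes were on the array and 13 were tested. In RE against Mig 1 was higher and 1 lower, beside 17.6% and 20.1% of all units. With GM-CSF 2 were higher and 2 lower, beside 18.8% and 23.3% of all units. The medians were 0.02 and 0.06. Ifngr1, a chain of the gamma-interferon receptor, changed by -0.58 ± 0.21 (limma adjusted p 0.0488) and -0.93 ± 0.21 (adjusted p 0.00343). Ifnar2, of the type I receptor, changed by -0.14 ± 0.11 (not called) and -0.51 ± 0.11 (adjusted p 0.00285).

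The receptor kinases had positive changes. Jak2 changed by 0.40 ± 0.22 (not called) and 0.87 ± 0.22 (limma adjusted p 0.0076), and Jak1 by 0.60 ± 0.25 (adjusted p 0.0799) and 0.72 ± 0.25 (adjusted p 0.0345). Tyk2 changed by 0.47 ± 0.15 (adjusted p 0.0266) and 0.34 ± 0.15 (adjusted p 0.0895). With replicate numbers as a block, Jak1 was also called without GM-CSF (adjusted p 0.00645) and Tyk2 also with it (adjusted p 0.00698). Median scaling brought the changes without GM-CSF to 0.11 for Tyk2 (adjusted p 0.72), 0.23 for Jak1 and 0 for Jak2, and the mean over its probes brought Tyk2 to 0.15 (adjusted p 0.356). The Tyk2 call ended in 6 of 24 alternatives, among them without RE replicate 1, RE replicate 2 or Mig replicate 3, and the Jak1 call with GM-CSF in 7, among them without any RE+GM array, Mig+GM replicate 1 or Mig+GM replicate 3. The call of Ifngr1 without GM-CSF was lost in 17 of 24 alternatives.

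**Figure D4:**
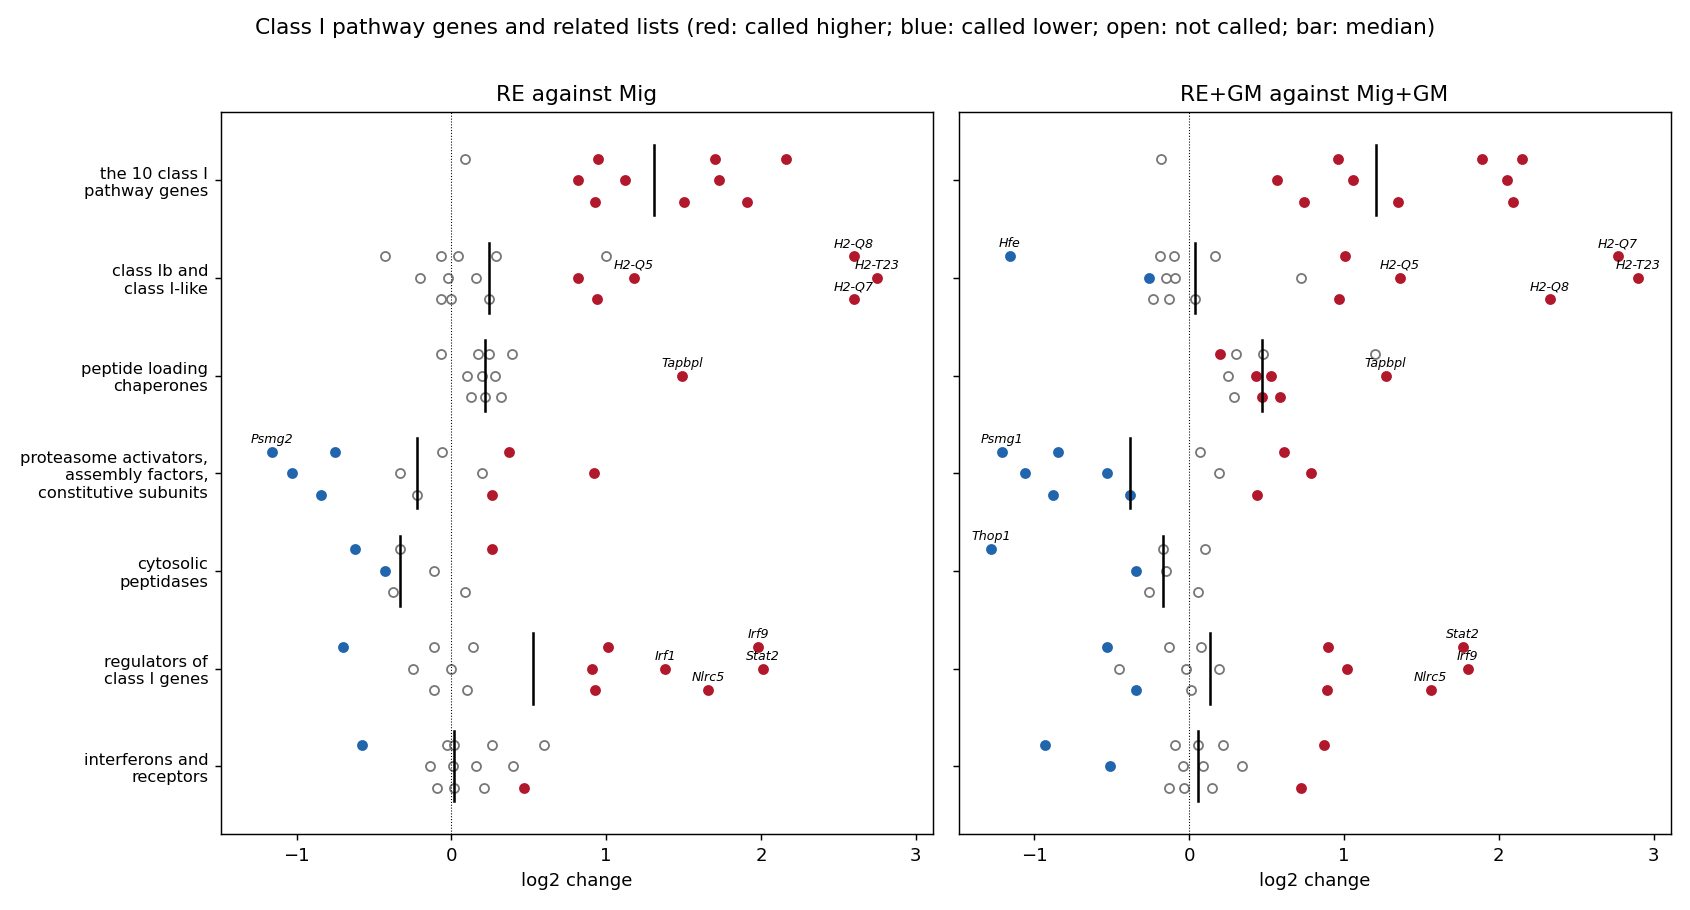
Log2 change (x axis) of the 10 class I pathway genes and of 6 related lists (y axis), in RE against Mig (left) and RE+GM against Mig+GM (right); each point is a gene, red called higher, blue called lower, open not called, and bars are medians. The 10 genes have medians of 1.31 and 1.21, and the lists medians between -0.38 and 0.52.

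Markers of other cells also differed between the fusion and vector groups, beside every result above. Over all units 17.6% were called higher and 20.1% lower in RE against Mig, and 18.8% and 23.3% with GM-CSF. The summed normalized signal of the 7 monocyte and macrophage markers tested (10 of 13 listed were on the array) was 10751 to 13611 in RE and 1353 to 7012 in Mig. It was 8318 to 12987 in RE+GM and 2457 to 7309 in Mig+GM. Of these, 3 were higher and 1 lower in RE against Mig: Adgre1 changed by 2.17 ± 0.34, Cd14 by 1.63 ± 0.37, Ly6c1 by 2.32 ± 0.72 and Cx3cr1 by -1.10 ± 0.21, while Ccr2, C1qa and Vcan were below background in both groups. The Ly6c1 call ended under median scaling (adjusted p 0.0748) and without RE replicate 2, Mig replicate 2 (where the change was 1.54) or Mig replicate 3. With GM-CSF 1 was higher and 1 lower, and Cd14 was at 0.06 ± 0.37 (not called).

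Sums of the 7 endothelial and stromal markers tested of 10 were 1009 to 2976 in RE and 689 to 857 in Mig, and 3685 to 5402 in RE+GM and 710 to 977 in Mig+GM. Of these 7, 3 were called higher in RE against Mig and 4 with GM-CSF, none lower. Most of each sum was Pecam1, which changed by 1.48 ± 0.38 (1.04 and not called under median scaling) and 2.59 ± 0.38. Kdr, Cxcl12 and Lepr were tested and called in neither comparison. Emcn (0.85 and 0.63) and Cdh5 (0.25 and 0.67) were called in both, but passed the filter only through the fusion groups. The Cdh5 call without GM-CSF ended in 4 of 24 alternatives. Col1a1, Col3a1 and Dcn were below background in all 4 groups. B cell markers (2 tested of 6) summed to 683 to 934 in RE and 167 to 214 in Mig. Most of that sum was Cd79b (1.98 ± 0.15). Ms4a1, the other one tested, averaged 6.28 in RE and 6.26 in Mig (not called), and Cd79a and Blk were below background. T and NK markers (4 tested of 12) summed to 419 to 1211 in RE and 1784 to 2543 in Mig, of which Nkg7 was the one marker called (-1.53 ± 0.31). The 9 progenitor markers summed to 10906 to 17757 in RE and 18269 to 24804 in Mig. The brightest of them, Mpo, was at -0.76 ± 0.35 (not called). In RE against Mig 1 was higher (Cd34, 1.97 ± 0.11), 2 were lower and 6 were not called. The lower ones were Cebpa (-0.91 ± 0.12) and Spi1 (-0.43, limma adjusted p 0.0398), and the Spi1 call was lost in 11 of 24 alternatives. Class II and dendritic cell, granulocyte and red cell sums overlapped between RE and Mig, though single markers were called. Among them were Klf1 (-2.09 ± 0.34), Hba-a1 (-2.12 ± 0.65), Hbb-bt (1.25 ± 0.26) and Cxcr2 (1.30 ± 0.27). These were named after their values were seen, as were Nkg7, Mpo, H2-Q1, Ms4a1, Kdr, Cxcl12 and Lepr. By limma, 0 of 7 class II and dendritic markers tested were called in either comparison. The part of any of these cells in the class I values was not tested.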

How the data were processed

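RNA of 12 samples in 4 groups of 3 was hybridized to Illumina arrays, and each sample's title and description gave its group and replicate number. The deposited table used throughout holds linear signal intensity before normalization, without detection p-values, and its summarization step is not stated in the labels. Another deposited table, intensity that the authors had normalized by an unstated method (column medians 78.4 to 80.7), served as an alternative after log2. Per the labels' protocols, RNA was column-purified and checked on a Bioanalyzer.

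Intensity was corrected with normexp (offset 50, which shrinks changes of dim probes), quantile-normalized and converted to log2, from the deposited values, with limma 3.58.1 in R 4.3.3. Of 25697 probes, 23978 have 1 gene symbol in the platform annotation, 0 several and 1719 none. Probes above their array's background (mode and spread of the lower flank of its signals) at p under 0.05 on at least 3 of 12 arrays were kept (16388), and the brightest kept probe of each gene was tested, which gave 12121 units. Group means were compared over all 12 arrays with lmFit and eBayes, two-sided, with Benjamini-Hochberg adjustment within each comparison at 0.05. The fit was tested on simulated data. The number of arrays limits the precision.

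The 10 genes and the lists were chosen with earlier results of these data known. All 10 genes were described. From each list up to 5 called genes with the widest change in either fusion comparison, any called for GM-CSF or the interaction, Psmb5, Psmb6 and Psmb7, and the 5 genes most like the members' mean were named. After removal of group means, arrays of the same replicate number correlated across units by 0.121 to 0.469 between RE and Mig, 0.216 to 0.43 between RE+GM and Mig+GM, 0.158 to 0.333 between RE+GM and RE, and 0.611 to 0.69 between Mig+GM and Mig. All exceeded 0.1, so the numbers were taken to pair the arrays, and the block was fitted as an alternative. Other alternatives were the authors' table, median scaling, an offset of 16, other filters, other probe rules, only the groups compared, array weights, a minimum fold of 1.5 and leaving out each array.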

Additional observations from a re-analysis of the deposited data

How the results depend on the processing

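Each result was recomputed under up to 24 alternatives. Of 432 alternative values for the 18 calls of class I genes, 425 stayed called, including all 216 that left out 1 array, and 7 did not. Those 216 include arrays outside the groups compared, whose removal leaves the change as it was and alters only its error. Median scaling ended the calls of Tap2 (0.48, adjusted p 0.115) and Psmb10 (0.37, adjusted p 0.105) in RE against Mig, leaving 7 genes. A test against a minimum fold change of 1.5 ended those of Tap2 (adjusted p 0.0929), Psmb8 (0.0917) and Psmb10 (0.451) there, leaving 6, and those of Psmb8 (0.637) and Psmb10 (1) with GM-CSF, leaving 7. Of 758 alternative values for the 32 uncalled differences, 1 was called, Erap1 in RE+GM against Mig+GM at -0.25 (adjusted p 0.0468) without Mig+GM replicate 3. With the replicate block, 9, 9, 0, 0 and 0 class I genes were called in RE against Mig, RE+GM against Mig+GM, Mig+GM against Mig, RE+GM against RE and the interaction, the same counts as without it. Among related genes called in RE against Mig, median scaling turned 2, Psmb6 to -0.18 (adjusted p 0.318) and Nrd1 to -0.18 (adjusted p 0.406), and among those not called it turned Cd1d1 to -0.11, Pdia3 to -0.24, P4hb to -0.13, Bcap31 to -0.27 and Sec61b to -0.19; the cause was not tested.

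Over all units, the minimum fold change left 993 of 4570 calls in RE against Mig and 1513 of 5101 with GM-CSF. Calls in RE+GM against RE numbered 274, against 104 with only the groups compared, 695 with the replicate block, 480 with it as a random effect, 992 with array weights and 22 with the minimum fold change, and 118 to 906 when 1 array was left out (906 without RE replicate 3). The interaction had 32, against 12 with median scaling, 18 with the offset of 16, 74 with the replicate block, 62 with it as a random effect, 98 with array weights and 8 with the minimum fold change, and 8 to 181 when 1 array was left out (181 without RE replicate 3). Mig+GM against Mig had 0 to 2. In RE+GM against RE, 83.9% of calls were higher, against 97.5% with median scaling, 68.3% in the authors' table, 58.1% with the replicate block, and 54.5% both with array weights and without RE replicate 3, and median scaling moved the median interaction of all units to 0.14, against -0.03. Signal limits the reading of Erap1, close to background, and of B2m, close to the brightest probes.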
